A study of Sus scrofa with 4 samples.

Results

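The sarcomere genes of heart and slow muscle were followed in minipig heart after MI, with and without grafted myoblasts. The group holds 10 genes, MYH7, MYL2, MYL3, TNNT2, TNNI3, TNNC1, TNNT1, ACTC1, ACTN2 and TTN, and was taken as every probe set whose single gene symbol in the annotation of the array is one of them. All 10 genes were found, by 12 of the 24123 probe sets on the array, against 6765 genes with a symbol of their own in all. ACTN2 and TTN have 2 probe sets each and the other genes have 1.

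Each condition was measured once, on an Affymetrix Porcine Genome Array, so the series holds 4 samples. After myoblast transplantation, border and infarct tissue were each put on an array, and so were border and infarct tissue of control hearts. According to the methods, all minipigs were female Chinese Bama minipigs, 4 months old, in which MI was made by tying the left circumflex coronary artery. The myoblast group received human skeletal myoblasts of male origin in DMEM, a culture medium, injected into the heart muscle. The control treatment group received DMEM alone, and both were given the immunosuppressant cyclosporin A. The labels call the control tissue untreated. If they mean animals with MI alone, each ratio of myoblast over control also holds the injection and the drug. The number of minipigs behind an array and the time at which tissue was taken are not given in the sources used here.

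The sarcomere is the contractile unit of striated muscle, in which myosin thick filaments pull on actin thin filaments anchored at the Z-disc. Calcium binding to the troponin complex on the thin filament lets myosin attach, and titin spans from the Z-disc to the M-band as a molecular spring. Ventricular muscle shares the slow myosin heavy chain MYH7, the light chains MYL2 and MYL3 and the troponin C TNNC1 with slow skeletal muscle, whereas TNNT2, TNNI3 and ACTC1 are the cardiac forms of their families in the adult heart. TNNT1 is the troponin T of slow skeletal muscle.

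The values are MAS 5.0 signals, the brightness of a probe set after background subtraction and scaling of each array to a common mean. All 12 probe sets were among the brightest of every array, between its 97.4th and 99.9th percentile. These genes of heart and slow muscle were thus present at high signal in all 4 tissues. A ratio is the signal of the first array over that of the second, and its log2 is given beside it. With 1 array in each condition no spread between replicates can be given, and no test was run, since a model of treatment and zone would leave only 1 residual degree of freedom. Differences between minipigs, between pieces of tissue and between hybridizations cannot be told apart from those of treatment or zone. Less RNA per cell and fewer cells of a type cannot be told apart either. Differences of 2-fold were common among dim probe sets, and the genes were therefore read against 385 other probe sets with a mean signal above 8192 units, called bright probe sets here. This limit was chosen after values had been seen.

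MYH7 encodes the slow β-myosin heavy chain, the main motor of the ventricle. Its signal was 27731 units in the border zone and 26177 units in the infarct zone after myoblasts, against 28123 and 34384 units in control border and infarct zones. The border ratio of myoblast over control was near 1, at 0.986 (log2 -0.02), and the infarct ratio was lower, at 0.761 (log2 -0.39). The control infarct array stood above the other 3.

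MYL2, the regulatory light chain bound to the neck of this myosin, was at 29655 units in the border zone and 27673 units in the infarct zone after myoblasts, against 31766 and 37290 units in controls. Its ratios of 0.934 in the border zone (log2 -0.10) and 0.742 in the infarct zone (log2 -0.43) had the order seen for MYH7. MYL3, the ventricular essential light chain, had 15608 and 18452 units in the myoblast border and infarct arrays, against 21694 and 24482 units in the control ones. In contrast to MYL2, it was lower by a like amount in both zones as deposited, with ratios of 0.719 (log2 -0.47) and 0.754 (log2 -0.41). The ratio of 0.719 was the lowest of the 12 probe sets in the border zone. This contrast depended on the scaling. With arrays centred on hybridization controls, MYL3 had log2 ratios of -0.44 at the border and -0.09 in the infarct zone. MYL2 then had -0.07 and -0.11.

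Among the thin filament genes, TNNT2 encodes cardiac troponin T, which ties the troponin complex to tropomyosin. It was at 22651 and 27422 units in border and infarct zones after myoblasts, against 29620 and 34844 units in controls. Both myoblast arrays were below both control arrays, with ratios of 0.765 in the border zone (log2 -0.39) and 0.787 in the infarct zone (log2 -0.35).

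TNNI3, the cardiac inhibitory troponin, was at 25267 units in the border zone and 24190 units in the infarct zone after myoblasts, against 28906 and 32717 units in controls. Its ratio was 0.874 in the border zone (log2 -0.19) and 0.739 in the infarct zone (log2 -0.44), the lowest of the 12 in that zone. TNNC1, the calcium-binding troponin of heart and slow muscle, was at 25936 and 27231 units after myoblasts, against 30106 and 35369 units in controls, again border before infarct. It was lower by ratios of 0.861 (log2 -0.21) and 0.770 (log2 -0.38), so all 3 troponins of the cardiac complex had both myoblast arrays below both control arrays, although after quantile normalization TNNT2 had a log2 ratio of 0.02 in the infarct zone.

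ACTC1 encodes cardiac α-actin, the backbone of the thin filament. It was at 22786 units in the border zone and 25095 units in the infarct zone after myoblasts, against 30899 and 33639 units in controls. The ratios were 0.737 (log2 -0.44) and 0.746 (log2 -0.42), nearly the same in both zones as deposited. With arrays centred on hybridization controls the log2 ratios were -0.41 at the border and -0.10 in the infarct zone. MYH6 and ACTA1, close relatives of MYH7 and ACTC1 that are also made in striated muscle, are named by no probe set used here, and whether the MYH7 and ACTC1 probe sets also read them was not tested.

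TNNT1 went the other way. Its signal was 11481 units in the border zone and 13056 units in the infarct zone after myoblasts, against 5520 and 8196 units in controls. Both myoblast arrays were above both control arrays, with ratios of 2.08 in the border zone (log2 1.06) and 1.59 in the infarct zone (log2 0.67), a mean ratio of 1.82. No bright probe set had a higher ratio in the border zone, and 98.4% of them were at or below TNNT1 in the infarct zone. In the Sscrofa11.1 annotation TNNT1 and TNNI3 are neighbours on chromosome 6, and TNNI3 was lower on both myoblast arrays.

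**Figure D1:**
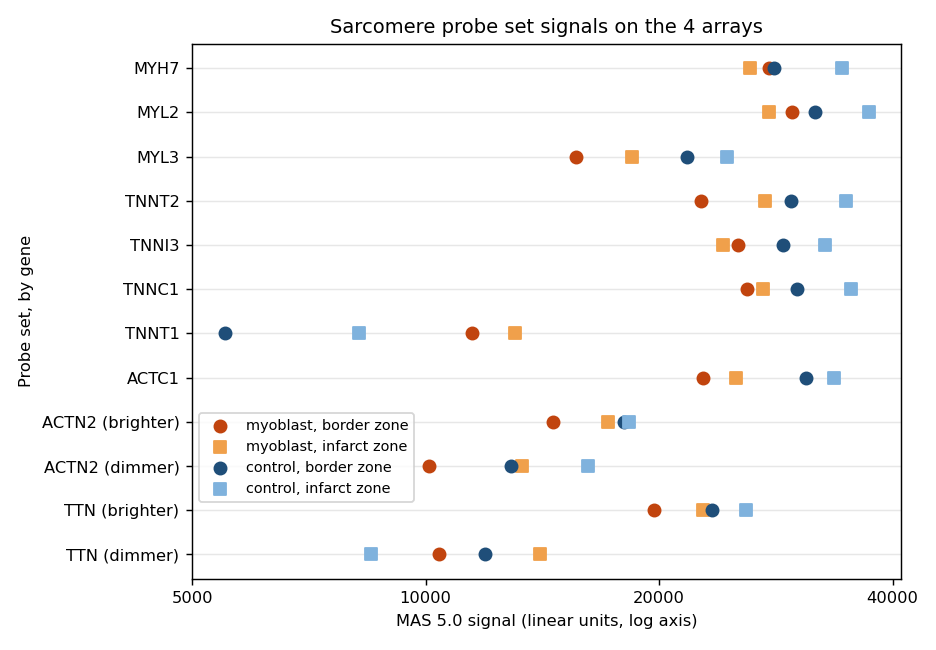
MAS 5.0 signal (linear units on a log axis) of the 12 sarcomere probe sets on the 4 arrays, 1 point per array, with circles for the border zone and squares for the infarct zone. TNNT1 is the only row with both myoblast points to the right of both control points, and 9 rows have both myoblast points to the left.

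ACTN2, the α-actinin that crosslinks actin at the Z-disc, was read by 2 probe sets. The brighter had 14604 and 17180 units in border and infarct zones after myoblasts, against 18038 and 18303 units in controls, with ratios of 0.810 (log2 -0.30) and 0.939 (log2 -0.09). The dimmer had 10106 and 13329 units after myoblasts, against 12888 and 16197 units in controls, with ratios of 0.784 (log2 -0.35) and 0.823 (log2 -0.28). Both were lower in both zones, except that in the infarct zone the brighter one was higher after quantile normalization (log2 0.09) and with arrays centred on hybridization controls (0.23) or on bright probe sets (0.11), and the dimmer one with the first of these centrings (0.04). They differed by at most 0.31 on the log2 scale in any comparison of 2 arrays.

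TTN encodes titin, and its 2 probe sets did not give the same picture. The brighter was at 19683 and 22758 units in border and infarct zones after myoblasts, against 23405 and 25908 units in controls, with ratios of 0.841 (log2 -0.25) and 0.878 (log2 -0.19). The dimmer was at 10412 and 14052 units after myoblasts, against 11920 and 8509 units in controls. In the border zone it was lower with a ratio of 0.873 (log2 -0.19), and in the infarct zone it was higher with a ratio of 1.65 (log2 0.72), which placed the TTN probe sets 0.91 apart on the log2 scale. The name of the dimmer one carries the mark that the manufacturer gives to probes matching several transcripts, and what else it reads was not tested.

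In the border zone, 1 of the 12 probe sets was higher and 11 were lower with myoblasts, with a median ratio of 0.851 (log2 -0.23), beside a median log2 of 0.00 over all probe sets. TNNT1 alone passed 2-fold, where 20.4% of all probe sets and 0.779% of the bright ones differed by at least 2-fold in either direction. Of the bright probe sets 70.1% were lower and 2.86% were at least 1.5-fold higher, with a median log2 of -0.11. Apart from TNNT1, the members lay between ratios of 0.719 and 0.986, all within the range from the 5th to the 95th percentile of the bright probe sets, log2 -0.55 to 0.36. Among the brightest probe sets of each gene, MYH7 alone changed direction when arrays were centred on the cre hybridization controls, cRNAs added in equal amounts before hybridization, or on the bright probe sets, and MYH7 and MYL2 changed direction after quantile normalization.

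In the infarct zone, 2 probe sets, TNNT1 and the dimmer of TTN, were higher and 10 were lower with myoblasts, with a median ratio of 0.778 (log2 -0.36), beside a median log2 of 0.01 over all probe sets. None of the 12 reached 2-fold, where 20.1% of all probe sets and 1.3% of the bright ones did. The 2 higher ones were at least 1.5-fold higher. Among the bright probe sets 84.4% were lower and 1.56% at least 1.5-fold higher, with a median log2 of -0.21. The hybridization controls moved as well. All 27 were lower on the myoblast array, with a median log2 of -0.32, and the 6 cre probe sets among them had a median of -0.34. Centring on the cre controls left a member median of -0.04, with 5 of the 12 probe sets higher and 7 lower, and quantile normalization left -0.03, so the size of the difference depended on the scaling, and TTN, ACTN2 and, for quantile normalization, TNNT2 changed direction. TNNT1 stayed higher in both zones under every alternative tried, at log2 1.03 to 1.17 in the border zone and 0.62 to 0.99 in the infarct zone.

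**Figure D2:**
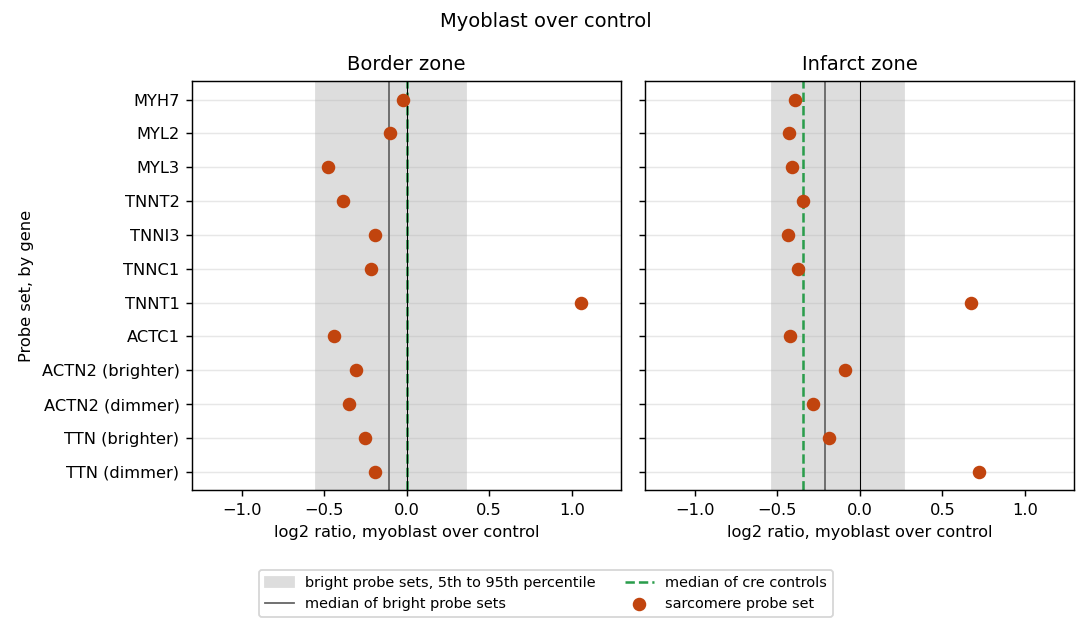
Log2 ratio of myoblast over control for each sarcomere probe set (points), with the border zone on the left and the infarct zone on the right; the grey band runs from the 5th to the 95th percentile of the 385 bright probe sets, the grey line is their median and the dashed line the median of the 6 cre controls. TNNT1 lies right of the band in both zones and the dimmer TTN probe set in the infarct zone only, while the other members lie inside it.

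Over both zones, 10 of the 12 probe sets were lower with myoblasts in each, and 65.7% of the bright probe sets were too. Both myoblast arrays were below both control arrays for 9 members, beside 55.6% of the bright probe sets, and above both for TNNT1 alone, beside 8.83%. The summed signal of the 12 probe sets made up 1.28% of all signal on the border array and 1.39% on the infarct array after myoblasts, against 1.45% and 1.58% on the control arrays. Without TNNT1 the shares were 1.22% and 1.32% after myoblasts, against 1.42% and 1.54% in controls. The highest signal on any probe set was itself lower after myoblasts, 39249 and 37665 units, against 48807 and 50774 units in controls.

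**Figure D3:**
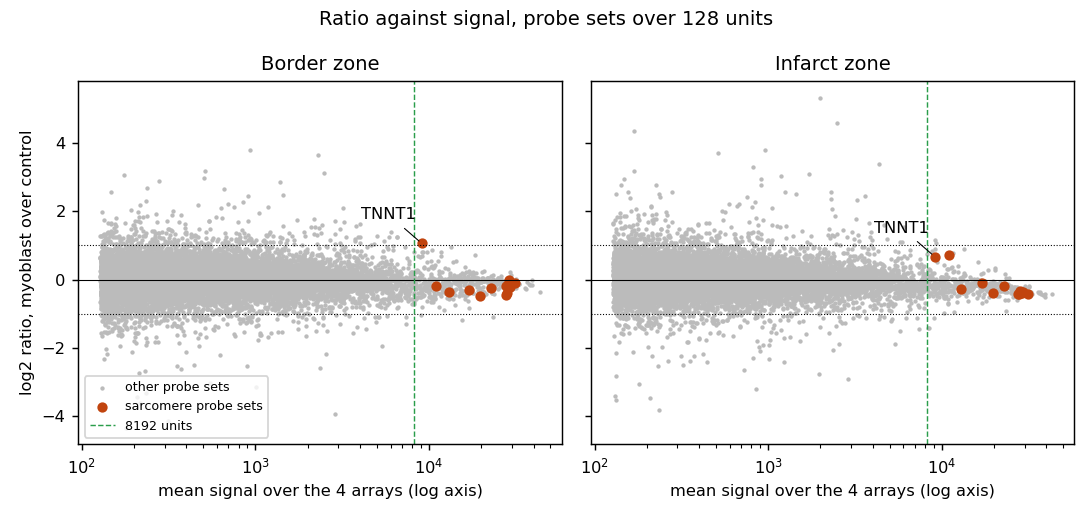
Log2 ratio of myoblast over control against mean signal over the 4 arrays (log axis) for probe sets near the array median or above it, border zone on the left and infarct zone on the right, with sarcomere probe sets in colour; dotted lines mark 2-fold and the dashed line 8192 units. The cloud narrows and bends below 0 at high signal, most clearly in the infarct zone, and TNNT1 stands at its upper edge.

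The infarct zone was then set against the border zone within each treatment. After myoblasts, 9 of the 12 probe sets were higher in the infarct zone and 3, MYH7, MYL2 and TNNI3, were lower, with a median ratio of 1.15 (log2 0.20). In controls, 11 were higher and 1, the dimmer TTN probe set, was lower, with a median ratio of 1.15 (log2 0.21). None reached 2-fold or 1.5-fold in either treatment, where 18.0% of all probe sets were at least 2-fold apart after myoblasts and 17.2% in controls. Among the bright probe sets these shares were 2.08% and 0.0% at 2-fold, and 5.19% and 0.519% at 1.5-fold. Of the bright probe sets, 60.5% were higher in the infarct zone after myoblasts and 85.7% in controls.

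MYH7, MYL2 and TNNI3 had infarct over border ratios of 0.944, 0.933 and 0.957 after myoblasts, against 1.22, 1.17 and 1.13 in controls. These 3 probe sets were thus slightly lower in the infarct zone with the graft and higher without it, although with the cre centring their log2 ratios were 0.02, 0.01 and 0.04 after myoblasts and 0.11, 0.05 and -0.005 in controls. All 27 hybridization controls were higher on the infarct than on the border array in controls, by a median log2 of 0.23, and 22 of them were lower on the infarct array after myoblasts. TNNT2 and MYL3 had closely matched ratios as deposited, 1.21 and 1.18 after myoblasts and 1.18 and 1.13 in controls. With the cre centring the treatments were apart, with log2 ratios of 0.38 and 0.35 after myoblasts and 0.05 and -0.01 in controls.

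TNNT1 was higher in the infarct zone by ratios of 1.14 after myoblasts and 1.49 in controls, and 1.49 was the largest ratio between zones among the members. In the control hearts 99.7% of bright probe sets were at or below it. The dimmer TTN probe set had ratios of 1.35 after myoblasts and 0.714 in controls, whereas the brighter one had 1.16 and 1.11. Centring on the cre controls left 6 of the 12 probe sets higher and 6 lower in controls, and all 12 higher after myoblasts.

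**Figure D4:**
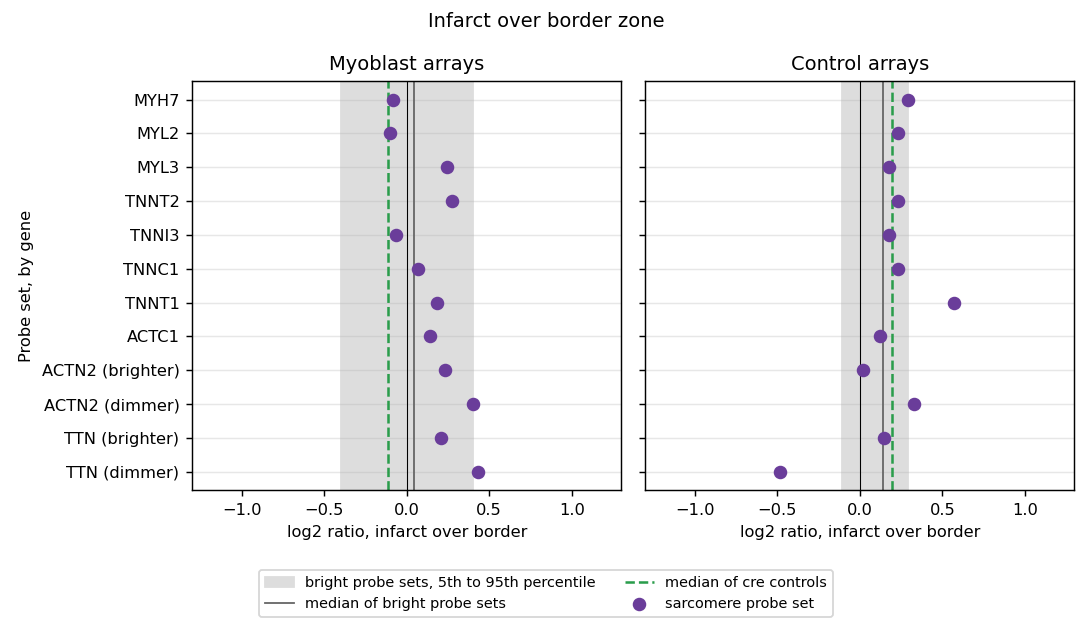
Log2 ratio of infarct over border zone for each sarcomere probe set (points), with myoblast arrays on the left and control arrays on the right; band and lines are drawn as for the treatment ratios. In controls TNNT1 and the dimmer ACTN2 probe set lie right of the band and the dimmer TTN probe set left of it, and the medians of the cre controls fall on opposite sides of 0 in the 2 panels.

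Other genes of the sarcomere and Z-disc were measured for 21 of 32 listed, each by its brightest probe set. With myoblasts 17 were lower at the border and 19 in the infarct zone, 16 of them in both, with medians of -0.24 and -0.39 on the log2 scale. Of the bright probe sets 70.1% and 84.4% were lower in these zones. At 2-fold, 5 of the 21 were lower at the border and 4 in the infarct zone, and none was higher. Of all 24123 probe sets, 2511 were at least 2-fold lower and 2400 at least 2-fold higher at the border. In the infarct zone 2312 were lower and 2541 higher. MYOM1, PDLIM3 and MYOM2 were past 2-fold in both zones, NEB and XIRP1 at the border only, and TNNI1, a dim probe set, in the infarct zone only. MYOM1, myomesin, which links thick filaments and titin at the M-band, was at 2403 and 3190 units in border and infarct zones after myoblasts, against 9288 and 11695 units in controls, with ratios of 0.259 and 0.273.

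PDLIM3, a Z-disc protein that binds α-actinin, had 370 and 576 units after myoblasts, against 1105 and 1368 units in controls, with ratios of 0.335 and 0.421. MYOM2, a second myomesin chosen after its values were seen, had 6617 and 5715 units after myoblasts, against 13524 and 12591 units in controls. NEB, the thin filament protein nebulin, chosen in the same way, had 1261 and 1761 units after myoblasts, against 2771 and 3415 units in controls. For MYOM1, PDLIM3, MYOM2 and NEB both myoblast arrays were thus below both control arrays, by more than any of the 12 cardiac and slow sarcomere probe sets. They stayed lower under every scaling tried. Each was read by a single probe set, and PDLIM3 and NEB were dimmer than all of the 12. Differences of 2-fold were less rare below the bright range, and no share at matched signal was taken.

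The tropomyosin TPM2 was at 3760 and 4900 units in border and infarct zones after myoblasts, against 3440 and 2537 units in controls, with ratios of 1.09 and 1.93. By this brightest probe set the control infarct array was the lowest of the 4, as for the dimmer TTN probe set. A dimmer TPM2 probe set shared that order, at 2562 and 2111 units in control border and infarct zones. Others did not, at 1110 and 1645 units and at 176 and 199 units in the same arrays. The order of controls in the brightest TPM2 probe set was also seen for ACTA2, smooth muscle α-actin. ACTA2 had 13169 and 13670 units after myoblasts, against 12531 and 7910 units in controls. ACTA2 was chosen after its values were seen. NEBL, a nebulin relative of the cardiac Z-disc, had 372 and 506 units after myoblasts, against 420 and 352 units in controls.

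**Figure D5:**
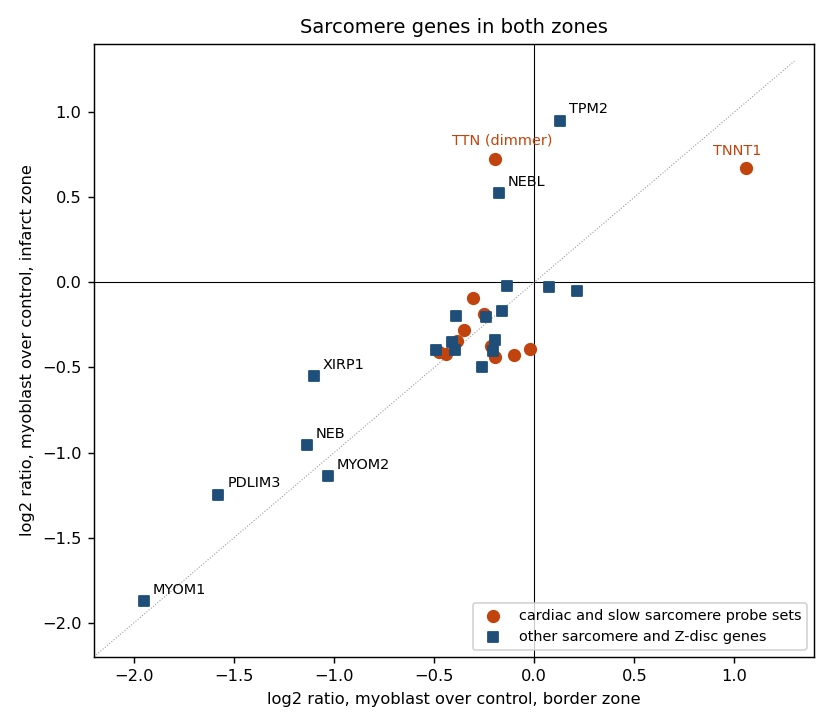
Log2 ratio of myoblast over control in the infarct zone against that in the border zone for the 12 cardiac and slow sarcomere probe sets (circles) and 19 other sarcomere and Z-disc genes (squares), with the dotted line marking equal ratios; TNNI1 and MYOZ1, whose signals were below the median of every array, are left out. MYOM1, PDLIM3, NEB and MYOM2 lie far into the lower left, TNNT1 lies alone at the right, and most circles gather between 0 and -0.5 on both axes.

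Genes of skeletal muscle were examined because the graft consists of human skeletal myoblasts. Whether the porcine probe sets read human transcripts was not tested. TNNI1, the slow skeletal troponin I, had 124 and 18.3 units in border and infarct zones after myoblasts, against 96.0 and 75.9 units in controls, all below the array medians of 137 to 142 units, and its ratios were not read. It too was chosen after its values were seen. Of 16 listed genes of the fast and developmental sarcomere 7 were measured, with a summed signal of 3223 and 2427 units after myoblasts, against 4623 and 4092 units in controls.

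Only MYL1, the fast skeletal essential light chain, was above the array median on all 4 arrays, at 3115 and 2240 units after myoblasts, against 4445 and 3914 units in controls. MYH2, a fast myosin heavy chain, had 3.07 and 37.4 units after myoblasts, against 4.14 and 4.62 units in controls. TNNT3, the fast troponin T, had 2.22 and 37.2 units after myoblasts, against 18.5 and 5.43 units in controls. Apart from MYL1 these fast muscle genes were thus near the low end of the array scale on every array, and their ratios were not read.

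Cardiomyocyte genes outside the sarcomere were measured for 18 of 27 listed. They were lower with myoblasts for 16 genes at the border and 12 in the infarct zone, with medians of -0.33 and -0.13 on the log2 scale. Of the bright probe sets 70.1% and 84.4% were lower in these zones, with medians of -0.11 and -0.21. Of all 24123 probe sets, 11998 and 11870 were lower. This list was read as deposited only, not under the other scalings. CASQ2, the calcium store protein calsequestrin, was lower with ratios of 0.548 and 0.638, and HSPB7, a small heat shock protein of heart, with 0.575 and 0.661. NPPA, the atrial natriuretic peptide, was at 9119 and 4218 units in border and infarct zones after myoblasts, against 2153 and 1246 units in controls, with ratios of 4.24 and 3.38, and thus shared the direction of TNNT1. PGAM2, a muscle phosphoglycerate mutase, had ratios of 1.15 and 1.41.

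Markers of other cell types moved between the same arrays, and their part in the sarcomere ratios was not tested. Fibroblast markers (8 of 10 measured) summed to 103832 and 65337 units in border and infarct zones after myoblasts, against 77065 and 74867 units in controls. FAP had ratios of 1.75 and 1.20, COL1A2 of 1.37 and 1.61, LUM of 1.17 and 0.651, and DCN of 1.08 and 0.800. All 8 were lower in the infarct than in the border zone after myoblasts, with a median log2 of -0.59, where 11373 of all 24123 probe sets were lower. In the same comparison 9 of the 12 sarcomere probe sets were higher, beside 60.5% of the bright probe sets.

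Macrophage markers (7 of 10) summed to 11844 and 14103 units after myoblasts, against 8799 and 9242 units in controls. VSIG4, with ratios of 1.85 and 1.48, and AIF1, with 1.62 and 1.38, were higher in both zones, as were 4 of the 7 genes in all. CD163, a scavenger receptor named after its values were seen, was at 1053 and 1810 units after myoblasts by its brighter probe set, against 1330 and 1300 units in controls, and had ratios of 0.218 and 0.316 by its dimmer one. Endothelial markers (8 of 8) summed to 7940 and 9952 units after myoblasts, against 7814 and 7540 units in controls, with ratios of 1.37 and 2.04 for CDH5, 1.45 and 1.51 for ESAM, 0.899 and 1.05 for VWF and 0.860 and 1.12 for PECAM1. As deposited, neither list was lower with myoblasts in its sum, in contrast to the sarcomere genes. In the infarct zone the sarcomere side of this contrast depended on the scaling, with a member median log2 of -0.04 with the cre centring.

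Smooth muscle and pericyte markers (8 of 10) summed to 34447 and 30902 units after myoblasts, against 30568 and 24144 units in controls, with ratios of 1.83 and 1.95 for TAGLN, 1.65 and 1.21 for ACTG2, 0.714 and 0.768 for RGS5 and 0.889 and 0.879 for CNN1. Adipocyte markers (4 of 6) summed to 8102 and 11812 units after myoblasts, against 7309 and 7381 units in controls. FABP4, a fatty acid binding protein also made by endothelium and macrophages, had ratios of 3.18 and 4.99, and LPL, a lipase also made by heart muscle, 0.455 and 0.729. HBB, 1 of 2 erythrocyte markers measured of 5, had ratios of 1.73 and 1.57. ALAS2, the other, named after its values were seen, went the other way with ratios of 0.832 and 0.451. Its signals in both infarct arrays, 43.9 and 97.3 units, were below the array medians. The list summed to 1553 and 1091 units after myoblasts, against 992 and 766 units in controls, most of it from HBB.

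Genes used as loading references (8 of 11) had median log2 ratios of -0.08 at the border and -0.13 in the infarct zone. HPRT1 had ratios of 1.33 and 1.80, EEF1A1 1.09 and 1.04, SDHA 0.638 and 0.896, and GAPDH, at 30305 and 29666 units after myoblasts, against 33060 and 38189 units in controls, 0.917 and 0.777. The ratios of GAPDH, itself a bright probe set, were close to those of MYL2. The ratio of 3′ to 5′ probe sets, a measure of RNA integrity and labelling, was 3.01 and 2.49 for EF1A in border and infarct zones after myoblasts, against 4.17 and 4.13 in controls. For GAPDH it was 1.73 and 1.38 after myoblasts, against 1.55 and 1.52 in controls, and for actin 24.6 and 19.5 after myoblasts, against 24.9 and 36.8 in controls. Both myoblast arrays were thus below both control arrays for EF1A and actin, and the treatments overlapped for GAPDH. For actin the border arrays were nearly level, and the infarct arrays were far apart, at 19.5 after myoblasts and 36.8 in controls. The part of RNA quality in the sarcomere ratios was not tested.

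The genes closest to the sarcomere pattern were sought among 4921 genes whose mean signal was near the array median or above it, by the distance between centred log2 signals over the 4 arrays. The nearest to the median profile of the members were ZNF32 (0.02), LOC100156967 (0.02), SQLE (0.02), COX7C (0.03) and NME2 (0.04). COX7C, a subunit of the last complex of the respiratory chain, had 19187 and 20391 units in border and infarct zones after myoblasts, against 22412 and 25483 units in controls. Of the members, TNNC1 was nearest to their own median profile (0.03) and ACTN2 the farthest after TNNT1 (0.19). Of the 4921 other genes, 3 were nearer to the profile than TNNC1, and 9.08% were nearer than ACTN2. TNNT1 was at 1.20, and 96.1% of the 4921 genes were nearer to the profile than it was.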

How the data were processed

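Total RNA of heart tissue was labelled with a 3′ IVT kit and hybridized to Affymetrix Porcine Genome Arrays. According to the methods, a GeneChip Scanner 3000 with Command Console Software 3.1 read the arrays, and signals were computed by MAS 5.0, with Gene Spring Software 11.0. The authors deposited log2 signals. They were used as deposited, and all 24123 probe sets of the 4 arrays were kept. With 2% trimmed from either end, the mean linear signal was 500.1 units on each array. The number of arrays limits the precision.

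Gene symbols came from the platform annotation, in which 10099 probe sets have 1 symbol, 198 several and 13826 none. By gene ID, 9989 of those with 1 symbol were found in the Sscrofa11.1 gene table with no symbol changed, among them all 10 members. Ratios are differences of log2 signals between 2 arrays, called at 2-fold as in the methods, with no test. A mean signal is 2 to the power of the mean log2 signal.

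The members and the 11 other gene lists were chosen with earlier results of these data known. The lists are other sarcomere and Z-disc genes, atrial and fast skeletal sarcomere genes, cardiomyocyte genes outside the sarcomere, markers of fibroblasts, macrophages, endothelium, smooth muscle, adipocytes and erythrocytes, and reference genes, each gene being read from its brightest probe set. Named were all members, in each list the 2 genes that rose most and the 2 that fell most, averaged over zones, among those above the array median on all arrays, and the 5 genes nearest to the member profile. Alternatives were quantile normalization, centring on array medians or on probe sets over 512 units, a floor at array medians, a threshold of 1.5-fold and the mean over the probe sets of a gene. Centring on the cre hybridization controls and on bright probe sets was added after the data were seen. The calculations were checked on simulated data. Python 3.11.15, pandas 2.3.3, numpy 2.4.6 and matplotlib 3.10.9 were used.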

Additional observations from a re-analysis of the deposited data

Results flagged for a closer look

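In 4 sarcomere probe sets the infarct zone differed from the border zone in opposite directions after myoblasts and in controls. There was 1 array on each side, and none of these differences was tested. Of the 12, 3 were lower in the infarct zone only after myoblasts and 1 only in controls. Such opposite directions were common elsewhere, with counts of 120 and 23 among the 385 bright probe sets. Over all 24123 probe sets the counts were 5270 and 5851. The dimmer TTN probe set was higher in the infarct zone after myoblasts and lower in controls, so that its log2 ratio of infarct over border was larger by 0.92 after myoblasts. The same 0.92 separates its log2 ratio of myoblast over control in the infarct zone from that in the border zone. MYH7, MYL2 and TNNI3 were lower in the infarct zone after myoblasts and higher in controls, by differences of -0.37, -0.33 and -0.24 on the log2 scale between the treatments. The bright probe sets and the hybridization controls moved in the direction of these 3 genes. The ratio was lower after myoblasts for 245 of 385 bright probe sets and for all 27 hybridization controls.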

How the results depend on the processing

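The ratios of treatment were taken within zone and those of zone within treatment. Whether border and infarct tissue of a treatment came from the same heart is not stated, so no pairing by animal is known. A model of treatment with zone as a block, with 1 residual degree of freedom, was not run. With 1 array in each group no replicate could be left out. No member median changed direction under any alternative tried, and the count at 2-fold in the border zone stayed at 1. For myoblast over control, the median log2 ratio of the members in the border zone was -0.12 after quantile normalization (-0.23 as reported). In the infarct zone it was -0.032 after quantile normalization, -0.04 when centred on the cre hybridization controls and -0.16 when centred on bright probe sets (-0.36 as reported), and the count at 2-fold, 0 as reported, was 1 with the cre centring (the dimmer TTN probe set) and 2 at a threshold of 1.5-fold. For infarct over border, the median after myoblasts was 0.30 with the cre centring (0.20 as reported), and in controls it was 0.051 after quantile normalization, 0.021 with the cre centring and 0.059 with the bright centring (0.21 as reported). The cre centring moved the median of all probe sets to 0.33 in the infarct zone for myoblast over control, and to 0.14 after myoblasts and -0.18 in controls for infarct over border. With the bright centring it was 0.22 for myoblast over control in the infarct zone and -0.14 for infarct over border in controls. The other sarcomere genes had an infarct zone median of -0.07 with the cre centring, with 13 of 21 lower. The causes of these moves were not tested.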

Other observations

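A few genes near the sarcomere were read by a bright and a dim probe set that differed in size of change. They were chosen after their values were seen. CRYAB, the small heat shock protein αB-crystallin that protects desmin and titin, was at 21731 and 24205 units in border and infarct zones after myoblasts by its brighter probe set, against 25055 and 32015 units in controls, and at 394 and 411 units by its dimmer one, against 2261 and 1736 units in controls. The brighter gave ratios of 0.867 and 0.756 and the dimmer 0.174 and 0.237. ANKRD1, a stress-responsive partner of titin, had ratios of 0.873 and 0.792 by its brighter probe set and 0.353 and 0.436 by its dimmer one. For both genes the direction was the same and the difference larger in the dim probe set.

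TPM1, the main tropomyosin of the ventricle, went the opposite way between its probe sets. The brightest had 19333 and 22305 units after myoblasts, against 25743 and 28451 units in controls, with ratios of 0.751 and 0.784. Another had 4919 and 5229 units after myoblasts, against 3489 and 2590 units in controls, with ratios of 1.41 and 2.02. Of the atrial sarcomere genes, 1 of 3 was measured. MYL4, the atrial essential light chain, had 1901 and 331 units in border and infarct zones after myoblasts, against 1120 and 719 units in controls, with ratios of 1.70 and 0.460, so the myoblast arrays lay on both sides of the controls.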
